A study of Mus musculus with 4 samples.

Results

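Molar tooth germs of embryonic day 18 (E18) were compared with germs of embryonic day 14 (E14) on 1 two-colour oligonucleotide array. Both groups were whole first molar germs of the lower jaw, taken from C57BL/6 mouse embryos, and the labels name no treatment and no altered gene in either. RNA from pooled E18 germs was labelled with Cy5 and RNA from pooled E14 germs with Cy3, so that a positive log2 ratio means a higher level at E18. E14 RNA was also hybridised on 3 other arrays, against E11, E12 and E16, and all 4 comparisons therefore share E14 as their reference. The labels do not state the number of germs or litters in a pool, nor whether 1 E14 pool served all 4 arrays. With 1 pool per stage and 0 dye swaps no difference could be tested, and every fold below describes these 2 RNA pools.

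Members were all non-control probes whose signal the scanner software called well above background in at least 1 channel of this array. They were 23418 of 41174 probes, of which 20549 were well above background in both channels, 1072 at E18 only and 1797 at E14 only. The dimmest probe that passed had a background-subtracted signal of 10.9 in Cy5 or 8.48 in Cy3, and the brightest that did not had 11.6 or 9.08. The probes stood for 15826 genes, of 17570 with a detected probe on any of the 4 arrays, 14154 of them well above background in both channels, 627 at E18 only and 1045 at E14 only. Where a gene had several probes, the brightest one over the 4 arrays stood for it.

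At the cap stage of tooth development a folding dental epithelium caps condensed jaw mesenchyme, and a signalling centre in the epithelium, the enamel knot, secretes proteins of the hedgehog, Wnt, BMP and FGF families. In the following bell stage the inner layer of the epithelium becomes ameloblasts, which secrete enamel, and the mesenchymal cells facing it become odontoblasts, which secrete dentin. A whole germ also holds vessels, nerves and blood, and in such bulk RNA fewer cells of a type and less RNA per cell cannot be told apart.

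Between the stages 1335 of the 15826 genes (8.44%) differed by 2-fold or more, 663 (4.19%) higher and 672 (4.25%) lower at E18. Counts within every gene list below are to be read against these shares of all genes. At least 4-fold, 77 genes were higher and 82 lower, and at least 16-fold 4 were higher and 1 was lower. The ratios centred on a median of -0.01, with 5th and 95th percentiles of -0.93 and 0.93 log2 units. Differences between the E14 channels were far smaller. Across genes, the median SD of the E14 channel between its 4 hybridisations was 0.038 log2 units (n = 4), with 0.087 at the 95th percentile, and 2 to 4 genes were 2-fold apart in E14 between the E18 array and another array. Whether this spread covers more than hybridisation is not given in the labels, and the spread between E18 pools was not measured. Different probes of a gene varied more, with a median range of 0.31 log2 units over 5490 genes. Of 550 genes at least 2-fold apart that had several probes, 490 had all probes on the same side of 0 and 133 had all of them at least 2-fold apart. The histone gene H2aw was the 1 gene whose probes were 2-fold apart in both directions, with log2 ratios of -1.06, -0.28 and 1.09, and it is given no direction here.

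**Figure D1:**
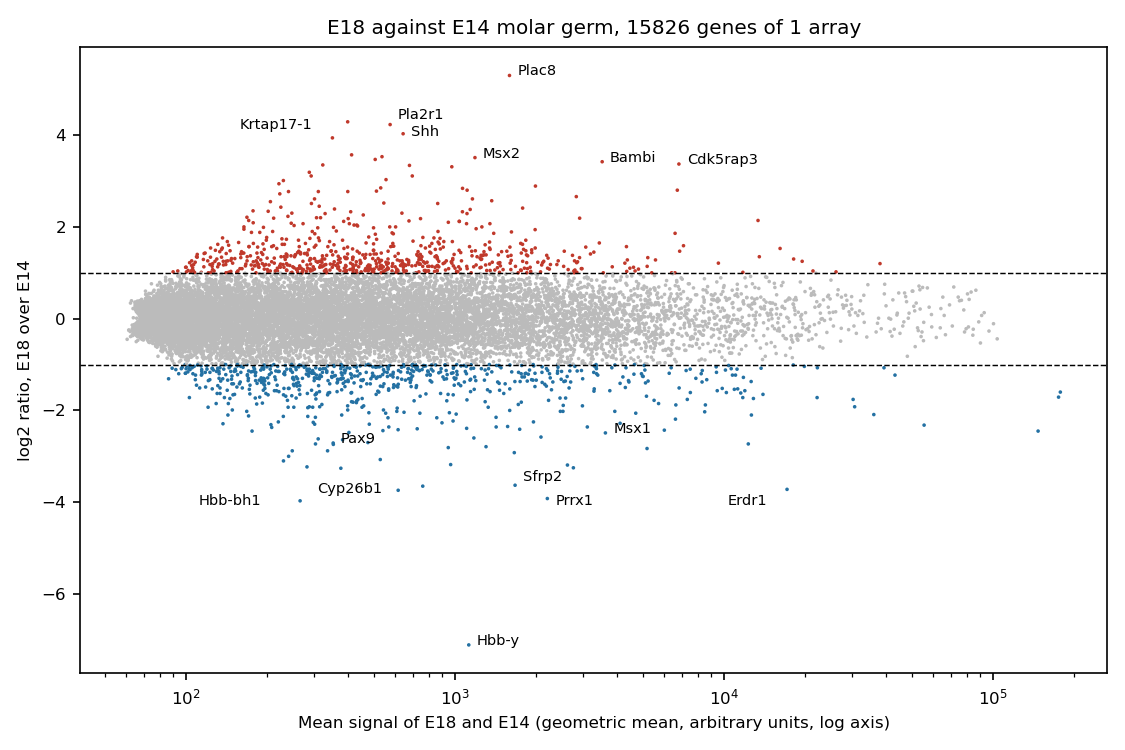
Each point is 1 of 15826 genes, by its mean signal over both stages (x axis, log scale, arbitrary units) and its log2 ratio of E18 over E14 (y axis). Red points are the 663 genes at least 2-fold higher at E18, blue points the 672 lower ones, and dashed lines mark 2-fold. Plac8 (5.30) and Hbb-y (-7.11) lie farthest from 0.

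The gene farthest above E14 was Plac8, which encodes a small cysteine-rich protein. Its normalized signal, in arbitrary units, was 10008 at E18 and 255 at E14, a 39.3-fold difference and a log2 ratio of 5.30 (E14 SD 0.04 log2 units, n = 4). At E16 the log2 ratio of Plac8 over E14 was 1.92, and at E11 and E12 it was -0.10 and -0.86, so E18 stood above every other stage. The 60-mer probe of Plac8 lay at chr5:99768632-99768691 in build mm7. The phospholipase A2 receptor gene Pla2r1 (2486 at E18, 133 at E14, log2 4.23) and the gut hormone gene Pyy (1034 and 101, log2 3.35) were also highest at E18, with log2 ratios of 0.99 and 0.23 at E16. Pyy had a second probe with a log2 ratio of 1.22. Plekhs1 reached 1771 at E18 against 90.3 at E14 (log2 4.29), and its second probe gave 1.42.

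Epithelial signalling genes stood among the highest. Shh, the hedgehog ligand made by the dental epithelium, had a signal of 2598 at E18 and 159 at E14 (log2 4.03, E14 SD 0.04, n = 4). Msx2, a homeobox factor of dental epithelium and mesenchyme, had 4014 and 352 (log2 3.51, E14 SD 0.01, n = 4). Bambi, a decoy receptor that dampens BMP signalling, had 11550 and 1080 (log2 3.42). All 3 were already higher at E16, with log2 ratios of 2.27 for Shh, 2.26 for Msx2 and 2.25 for Bambi, and all 3 were below E14 at E11 and E12. The probe of Shh lay at chr5:27489898-27489957 and that of Msx2 at chr13:52503611-52503670 (mm7). The part of the transcript that these probes match was not analysed here.

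The rest of the 20 highest genes fell into a few kinds. Enamel epithelium genes were Adgrf4, an adhesion G protein-coupled receptor (log2 3.57), and Satb1, a chromatin organizer (3.34). Matrix genes were Col22a1, a collagen of tissue junctions (3.53, second probe 3.29), and Omd, a keratan sulfate proteoglycan of mineralized tissue (3.11). Cyp26a1, which breaks down retinoic acid (3.31), and Aldh1a3, which makes it (3.03, second probe 1.11), were both higher. Spink5, a protease inhibitor of stratified epithelium (3.19), was the one among them that was lower than at E16 (3.88). Slc39a8, a zinc and metal transporter, had probes at 3.47, 1.51 and 0.23, and Cdk5rap3 had a bright probe at 3.37 and a dim one at 0.37, so for these 2 genes the fold depends on the probe. The hair gene Krtap17-1 (3.94), the adaptor gene Blnk (2.89) and 2 unnamed transcripts, ENSMUST00000096108 (3.11) and NAP023895-001 (2.85), complete the set. Of the 20, 7 had several probes and 5 of those had every probe at least 2-fold higher.

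Genes well above background at E18 only have a lower bound in place of a fold, taken against their own E14 signal or, where that is lower, the dimmest signal of any detected probe. Mmp13, a collagenase of bone and cartilage, was at least 8.04-fold higher (654 at E18, 81.3 at E14). Its log2 ratio at E16 was 2.73, close to the 3.01 of E18. The epithelial protease inhibitor Serpinb12 was at least 7.70-fold higher, although its second probe gave a log2 ratio of 0.65. The fatty acid binding protein gene Fabp4 was at least 5.86-fold higher, with both of its detected probes above 2 log2 units (2.15 and 2.55). Tmem213 (5.09), Sall3 (4.63), Stk32a (4.42), Rpl39l (4.27) and Cntnap2 (3.38) had the next bounds, as folds.

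**Figure D2:**
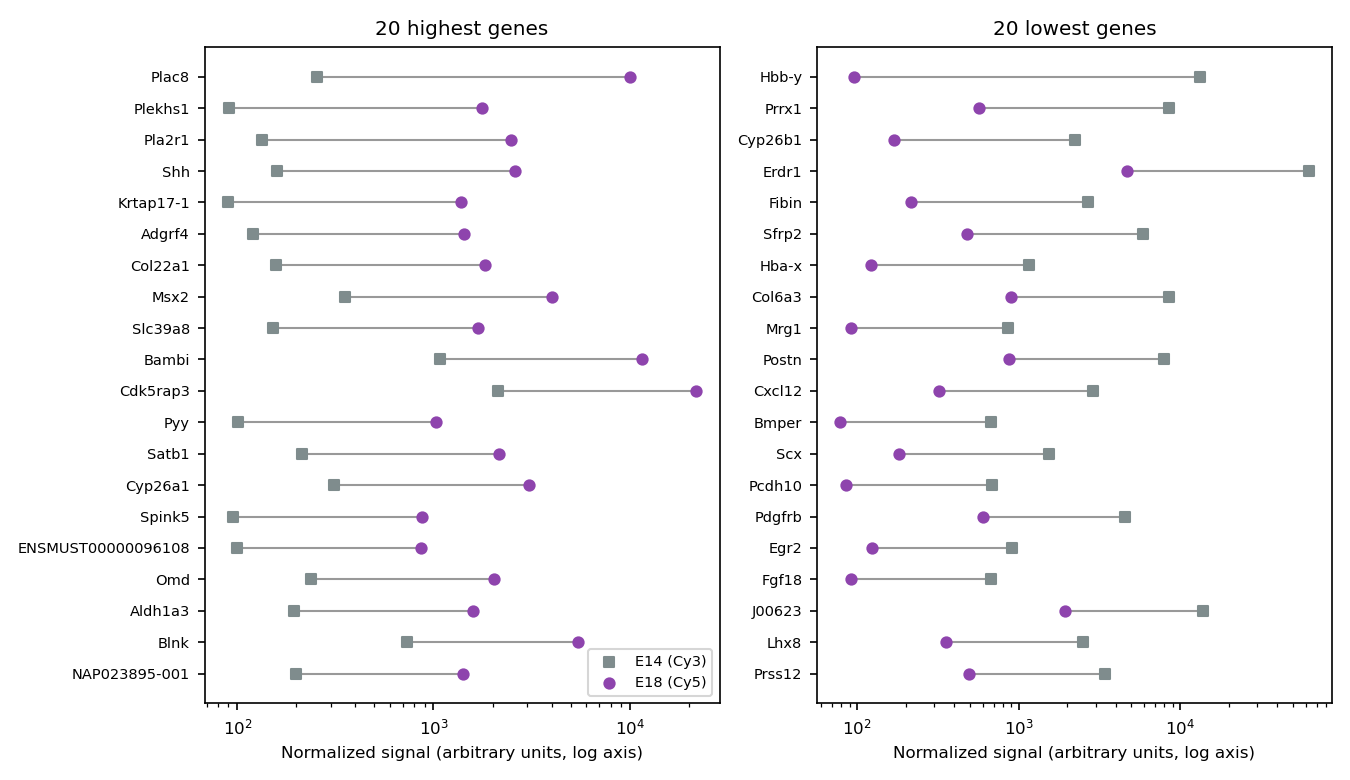
Normalized signals (x axis, log scale, arbitrary units) of the 20 genes with the highest and the 20 with the lowest log2 ratio among genes well above background in both channels. Grey squares are E14 and purple circles E18, 1 pool each; Plac8 had 255 at E14 and 10008 at E18, and Hbb-y 13254 and 95.9.

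The lowest gene was Hbb-y, an embryonic beta-like globin of primitive red cells. Its signal was 95.9 at E18 and 13254 at E14, a log2 ratio of -7.11 (E14 SD 0.26, n = 4). Hba-x, the embryonic alpha-like globin, had 122 and 1166 (log2 -3.26), and Hbb-bh1, a second embryonic beta-like globin, was not well above background at E18 and was at least 15.6-fold lower. All 3 were above E14 at E11, with log2 ratios of 1.5 for Hbb-y, 2.60 for Hba-x and 4.49 for Hbb-bh1, and they were nearly as far below it at E16 (-6.03, -2.99 and -3.79). Adult globins lay closer to E14: Hba-a1 had a log2 ratio of -0.64 and Hbb-bt one of -1.07, with other probes of Hbb-bt up to 0.10. With each array centred on its median in place of loess, the ratios of these bright genes turned to 0.37 and 0.02, while Hbb-y was at -6.59. Of 12 measured red cell genes 5 were at least 2-fold lower and 0 higher (median -0.62, or -0.19 with no filter on dim probes), and Alas2, the first enzyme of heme synthesis in red cells, was at -0.60.

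The sequences just upstream of Hbb-y and Hba-x are shown because these genes had the lowest ratios of the globins detected in both channels. Each line gives the 130 bases before the start in RefSeq (GRCm38.p6), 5′ to 3′ on the strand of the gene, in capitals where a search of both strands found the motif ATAAA, the CCAAT box or the motif CACCC. The window of Hbb-y is chr7:103853208-103853337 on the minus strand and that of Hba-x is chr11:32276470-32276599 on the plus strand.
Hbb-y: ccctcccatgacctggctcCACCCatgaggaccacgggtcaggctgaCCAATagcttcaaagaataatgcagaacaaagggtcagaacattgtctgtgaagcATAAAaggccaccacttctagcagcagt
Hba-x: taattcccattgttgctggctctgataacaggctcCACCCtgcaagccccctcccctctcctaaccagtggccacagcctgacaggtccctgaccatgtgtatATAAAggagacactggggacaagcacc
The motif ATAAA, part of the TATA box consensus, lay 28 bases before the start of Hbb-y and 27 before that of Hba-x. The motif CACCC, which Krüppel-like factors bind, lay 111 bases before the start of Hbb-y and 95 before that of Hba-x. A CCAAT box lay 83 bases before the start of Hbb-y and was not among the letters of the Hba-x window. Over 250 bases upstream of 32851 promoters, 37.3% held the motif ATAAA, 52.0% held the motif CACCC and 33.8% held a CCAAT box on either strand, so these short motifs are common and describe the sequences only.

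Many transcription factors of the jaw and dental mesenchyme were lower. Of 44 measured, 17 (38.6%, against 4.25% of all genes) were at least 2-fold lower and 4 higher, and the median log2 ratio was -0.72. Prrx1, a homeobox factor of craniofacial mesenchyme, had a signal of 567 at E18 and 8604 at E14 (log2 -3.92, E14 SD 0.08, n = 4). The 3 brightest probes of Prrx1 gave -3.92, -3.52 and -3.17, and the 3 dim ones, not well above background at E18, gave -0.20, -0.29 and -1.08.

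The factors known to be needed for molar development followed. Pax9 had a signal of 138 at E18 and 904 at E14 (log2 -2.71), and Msx1 had 1533 and 8600 (log2 -2.49, second probe -1.80). The LIM homeobox factors Lhx8 (357 and 2506, log2 -2.81) and Lhx6 (315 and 1669, log2 -2.40) had second probes closer to 0, at -1.15 and -0.29. Barx1, a molar-field homeobox factor, was at -0.91, short of 2-fold. At E16 the same genes were closer to E14, at -2.72 for Prrx1, -1.20 for Pax9, -1.78 for Msx1, -1.38 for Lhx8, -0.90 for Lhx6 and -0.29 for Barx1. Prrx1, Pax9, Lhx8 and Lhx6 were at least 2-fold below every other stage, as 43 genes in all were (0.272%). The probes of Prrx1, Pax9 and Msx1 lay at chr1:163209258-163209317, chr12:54640542-54640601 and chr5:36902462-36902521 (mm7).

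Others of this group were Scx, a tendon and ligament factor (-3.07), Eya1 (-2.73), Eya4 (-2.12) and Meis2 (-2.02), all lower. Dmrt2 was at least 4.89-fold lower. The 4 members that were higher were Msx2 (3.51) and the distal-less homeobox genes Dlx4 (1.4), Dlx5 (1.36) and Dlx2 (1.18), which dental epithelium also expresses. With median centring 17 of the 44 were still at least 2-fold lower.

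Factors of the dental epithelium were divided. Of 29 measured, 5 were at least 2-fold higher and 4 lower, with a median of 0.20. Sp6 (epiprofin), a factor of the enamel epithelium, had a signal of 17736 at E18 and 2546 at E14 (log2 2.80, second probe 1.44). Trp63, a regulator of stratified epithelium (1.26, lowest probe 0.25), and Tbx1 (1.1) were also higher. On the lower side were Tfap2c (-1.63), Nkx2-3 (-1.58) and Tfap2b, which was at least 2.29-fold lower. Sox2, a factor of epithelial progenitors, had 96.7 at E18 and 259 at E14 (log2 -1.42). Sox2 had been above E14 on the other arrays, at 0.10, 0.49 and 0.59 for E11, E12 and E16.

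**Figure D3:**
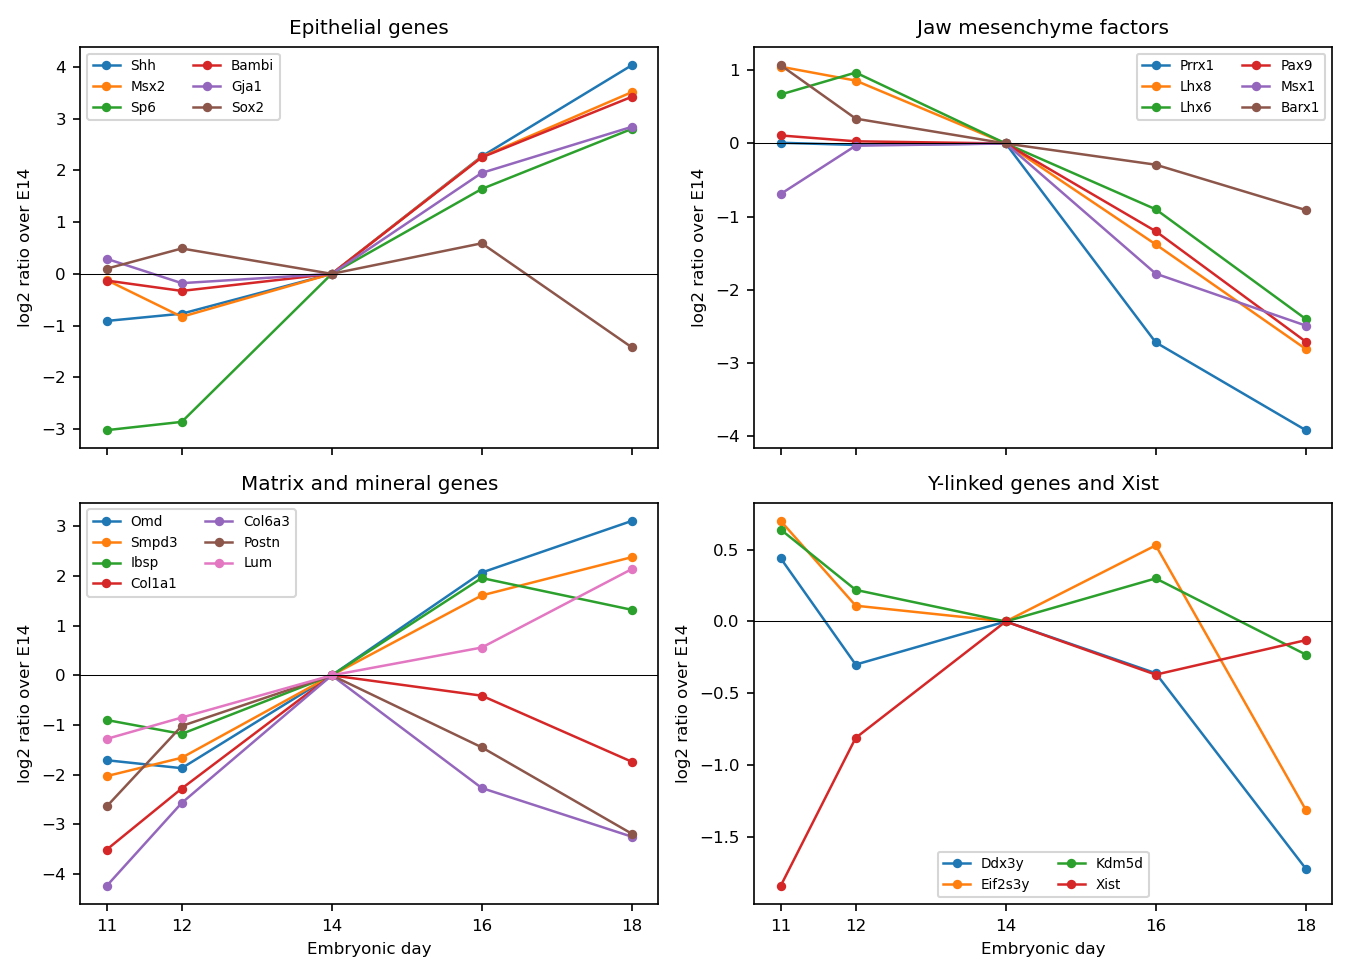
Log2 ratio over E14 (y axis) by embryonic day (x axis) for named genes, 1 pool per stage and E14 set to 0. Shh (4.03) and Msx2 (3.51) were highest at E18, Prrx1 (-3.92) and Lhx8 (-2.81) lowest, Ibsp was higher at E16 (1.96) than at E18 (1.32), and Ddx3y (-1.72) and Eif2s3y (-1.31) were lowest at E18.

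Genes of the hedgehog pathway lay on both sides of E14. Of 18 measured, 2 were at least 2-fold higher and 3 lower, with a median of -0.16 that turned to 0.13 with median centring. Shh was at 4.03 and Ccnd1, a cyclin induced by several growth signals, at 1.48. Ptch1, the Shh receptor and a target of the pathway, was at 0.98 (second probe 0.10), and Gli1, the target most often read as its output, at -0.50. The other 2 transcription factors of the pathway, Gli2 (-1.22) and Gli3 (-1.08), and the co-receptor Boc (-1.20) were lower, but with median centring 3 of the 18 were at least 2-fold higher and 0 lower.

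Wnt pathway genes lay on both sides. Of 14 ligands measured, Wnt3a (1.73), Wnt7a (at least 2.70-fold) and Wnt6 (1.06) were higher, and Wnt2 was at least 3.80-fold lower. Wnt10a, an epithelial ligand whose loss causes missing teeth, was at 0.47. Of 45 receptors, inhibitors and response genes, 7 were higher and 9 lower. The secreted inhibitors divided, with Sfrp2 (477 at E18, 5887 at E14, log2 -3.63), Frzb (-2.60), Sfrp1 (-2.16, other probe -0.28) and Dkk2 (-1.99) lower and Wif1 (2521 and 631, log2 2.0) and Dkk1 (1.47) higher. The R-spondins, which enhance Wnt signalling, also divided, with Rspo2 at 2.20 and Rspo1 at -2.23. Their receptor Lgr5, a marker of epithelial stem cells, was at -2.74. Of the nuclear factors Tcf7 was at 2.02 and Lef1 at -1.81, and the response gene Axin2 was at -0.23.

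In the BMP, activin and TGF-beta pathway 4 of 40 genes were higher and 5 lower, with a median of -0.11 (0.18 with median centring). Bambi was at 3.42, Id4, an inhibitor of helix-loop-helix factors, at 2.61, Bmp7 at 1.54 and Inhbb at 1.33. Inhba, the activin subunit of early dental mesenchyme, had a signal of 854 at E18 and 5123 at E14 (log2 -2.58), and the activin antagonist Fst was at -1.50. Bmp2 (0.10) and Bmp4 (-0.22), ligands of the enamel knot and mesenchyme, differed from E14 by less than 2-fold.

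In the FGF pathway Fgf9 was higher (1.39) and Fgf18 (-2.88), the feedback phosphatase Dusp6 (-1.23) and Fgf8 (-1.01) were lower among 29 measured genes. Fgf3 (0.28) and Fgf10 (0.45), the ligands of dental mesenchyme, were within 2-fold. Of 20 Notch pathway genes 2 were higher, Hey2 (at least 2.19-fold) and Hes5 (1.04), and 3 lower, Notch3 (-1.38), Dtx1 (-1.36) and Dlk1 (-1.19). Edar, the ectodysplasin receptor of the enamel knot, was at 0.37, and of the 10 genes of that pathway measured only Tnfrsf19 passed 2-fold (1.28, other probe 0.09).

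Retinoic acid enzymes lay on both sides of E14. Cyp26b1, which degrades retinoic acid, had a signal of 169 at E18 and 2246 at E14 (log2 -3.74), whereas its relative Cyp26a1 had 3067 and 310 (log2 3.31). Among the synthesizing enzymes Aldh1a2 was lower (-1.69) and Aldh1a3 (3.03) and Aldh1a1 (1.25) were higher. So 1 enzyme of breakdown and 1 of synthesis were lower while their relatives were higher. At E16 the order was the same, with Cyp26b1 at -2.17 and Cyp26a1 at 2.14. Of 19 genes of the pathway 5 were higher and 2 lower. The probes of Cyp26a1 and Cyp26b1 lay at chr19:37401759-37401818 and chr6:84601274-84601333 (mm7).

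The genes that encode enamel and dentin matrix were dim. Of 21 measured genes of enamel matrix and amelogenesis 4 were at least 2-fold higher and 0 lower (median 0.55), and these 4 were Adgrf4, Satb1, Sp6 (2.80) and Odam. The median was 0.22 with no filter on dim probes and 1.15 with the scanner's ratio, which put 11 genes higher. Odam, a protein of maturing ameloblasts, had a signal of 733 at E18 and 134 at E14 (log2 2.45), after 0.01 at E16. The defining matrix genes did not follow. Enam, the enamelin gene, and Mmp20, the enamel protease, were well above background in neither channel. Ambn, the ameloblastin gene, had a log2 ratio of 0.17 at E18 and 0.82 at E16, and the brighter probe of Amelx, the amelogenin gene, had -0.17 and 0.10. The second probe of Amelx was well above background at E16 only, with 1.42 there and -0.06 at E18.

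Dspp, Dmp1 and Bglap were highest at E16 of the measured stages. Dspp, which encodes the main non-collagen proteins of dentin, had a log2 ratio of 1.36 at E16, well above background there, and 0.15 at E18, where it was not. Dmp1, an acidic phosphoprotein of dentin and bone, had 0.75 and -0.03 in the same way, and Bglap, the osteocalcin gene, 1.43 and 0.48. The scale of these differences was small in signal, since the Cy5 mean signal of Dspp at E18 was 34.3 before correction, against an array median background of 31.0.

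Other genes of mineralized matrix were brighter. Of 24 measured, 8 were higher and 3 lower (median 0.06). Omd (2039 at E18, 237 at E14, log2 3.11), Car2, a carbonic anhydrase (2935 and 421, log2 2.80), Smpd3, a sphingomyelinase needed for mineralization (2.38, second probe 0.97), and Spp1, osteopontin (1.51), were the highest. Ibsp, bone sialoprotein, was at 1.32 after 1.96 at E16, and Alpl, tissue-nonspecific alkaline phosphatase, at 1.08. The type I collagen genes Col1a1 (7047 and 23579, log2 -1.74) and Col1a2 (-2.10) were lower, and so was the matricellular gene Postn (868 and 7930, log2 -3.19), whose dim second probe gave -0.30. The osteogenic factor Runx2 was at -1.53, with other probes up to -0.47, and Sp7, which acts after it, at 0.43.

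Among matrix genes of connective tissue more were lower than higher, which for the second group below depends on the normalization. Of 35 collagens 13 (37.1%) were at least 2-fold lower and 3 higher, with a median of -0.59. The collagen median was also below E14 at E11 (-0.85), E12 (-0.68) and E16 (-0.29). Col6a3 had a signal of 896 at E18 and 8504 at E14 (log2 -3.25), with dim probes at -0.86 and -0.32. Its brightest probe was below E14 on the other arrays too, at -4.24, -2.57 and -2.27 for E11, E12 and E16. Col8a1 was at -2.35, after 0.21 at E16, and the fibrillar Col3a1 was at -1.52. Col22a1 (3.53), Col14a1 (2.18) and Col9a3 (1.59) were the 3 higher ones. Of 47 proteoglycans, microfibril and matricellular proteins 17 (36.2%) were lower and 8 higher (median -0.56). The median of this list was -1.07 at E11, -0.68 at E12 and -0.15 at E16. Postn, the leucine-rich proteoglycan Prelp (-2.64), the microfibril protein Mfap4 (-2.02) and the fetal fibrillin Fbn2 (-1.87) were lowest. Postn was also below E14 at E11 (-2.64), E12 (-1.02) and E16 (-1.45). The lumican gene Lum was higher, with 28111 at E18 and 6396 at E14 (log2 2.14, 0.56 at E16), and so were Omd and Matn4 (2.78). With median centring 10 of the second group were higher and 10 lower, and with no filter on dim probes its median was -0.21. With median centring 8 of the collagens were at least 2-fold lower, and Col1a1 (-0.84), Col3a1 (-0.67) and the mesenchymal filament gene Vim (-1.07, then -0.28) were no longer so.

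**Figure D4:**
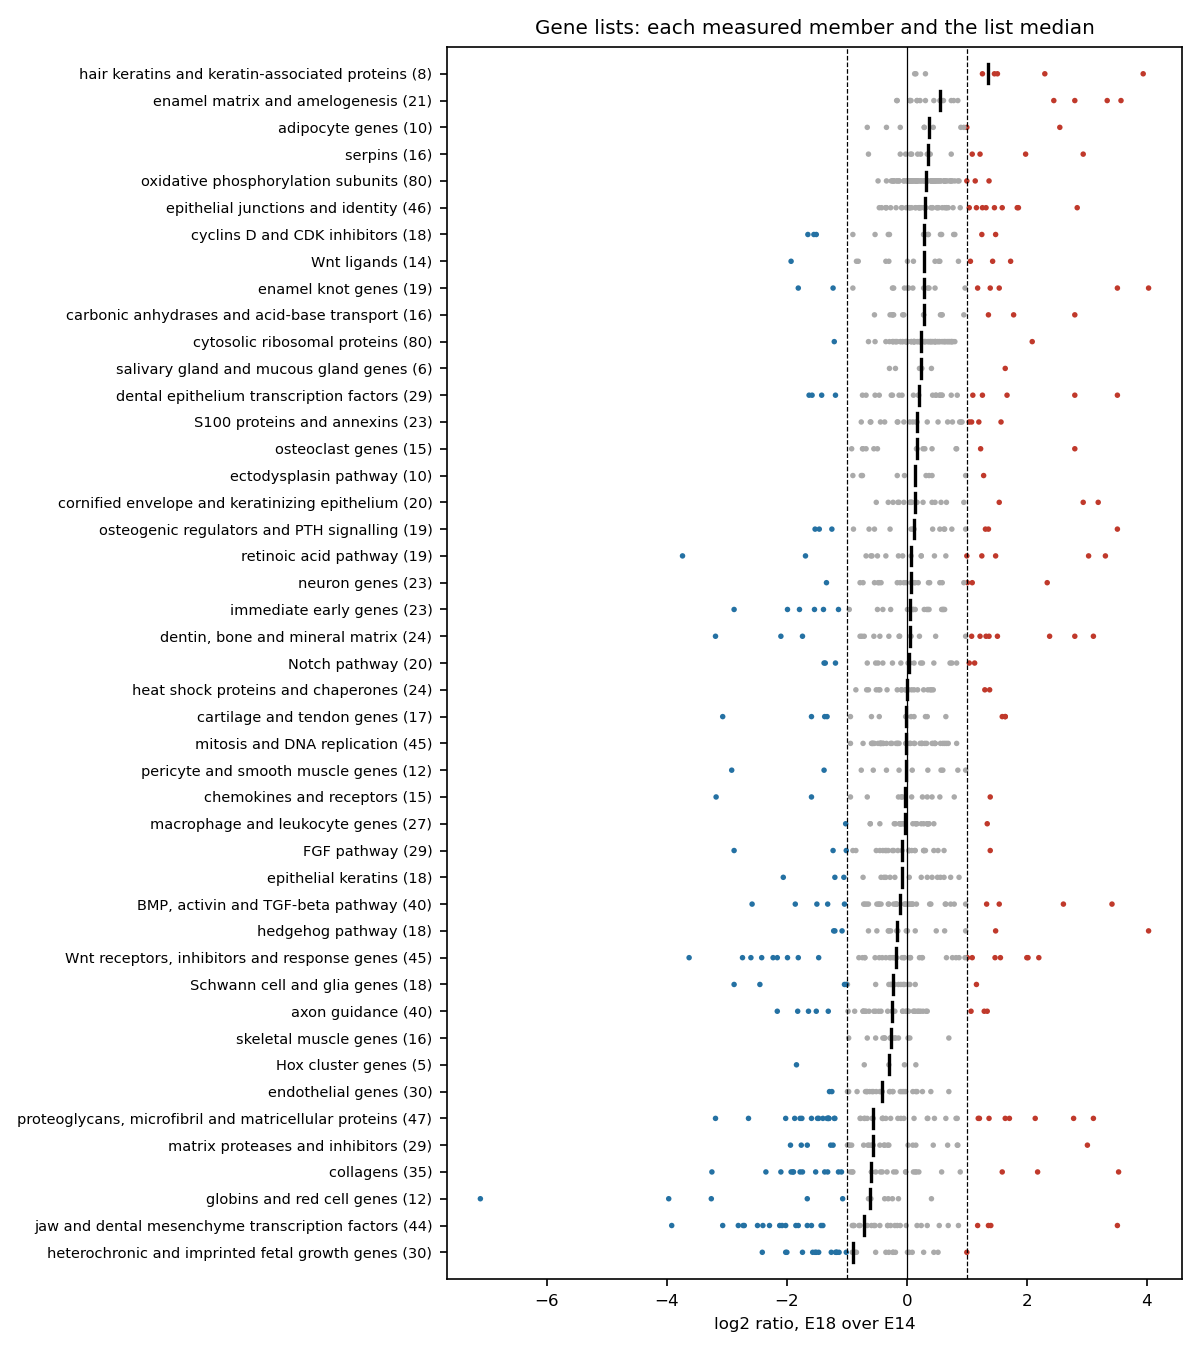
Log2 ratio of E18 over E14 (x axis) for every measured member of each gene list (rows, with the number measured), with red and blue points at least 2-fold apart and a black bar at the list median. Hair keratin genes have the highest median (1.36) and heterochronic and imprinted growth genes the lowest (-0.89) as normalized here; with median centring jaw mesenchyme factors were lower (-0.49 against -0.35), and so they were with an offset of 0 and the scanner's ratio.

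Many genes of fetal growth were lower. Of 30 measured heterochronic and imprinted growth genes 14 (46.7%) were at least 2-fold lower and 1 higher, with a median of -0.89, against -0.28 at E16. Meg3, an imprinted noncoding RNA, was at -2.41, with other probes up to -0.26. Grb10, an inhibitor of insulin and IGF receptors (-2.02), Hmga2, a chromatin protein of fetal growth (-2.0), and Igf2bp1, an RNA-binding protein (-1.74), followed. Igf2, the fetal growth factor, had a signal of 6622 at E18 and 19173 at E14 (log2 -1.53, second probe -1.05), and H19, its reciprocally imprinted neighbour, was at -1.17. Igf1, the factor that prevails after birth, was at 1.0. Many of these genes are bright, and with median centring 5 of 30 were at least 2-fold lower, Igf2 moving to -0.65 and H19 to -0.32.

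Genes of cell division showed no member apart. Of 45 genes of mitosis and DNA replication 0 were at least 2-fold higher or lower, with a range from -0.94 (Ccne1) to 0.83 (Cdk1) and a median of -0.02, which became 0.50 with 7 genes higher under median centring. Mki67, the proliferation marker, was at -0.40. The D cyclins divided, with Ccnd1 at 1.48, Ccnd2 at -1.65 and Ccnd3 at -1.55, and the cell cycle inhibitor Cdkn1c was at -1.51. Ribosomal protein genes (80 measured, median 0.24, 1 higher and 1 lower) and genes of oxidative phosphorylation (80 measured, median 0.32, 3 higher) depended most on the normalization, since 61 and 45 of them were at least 2-fold higher with median centring.

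Epithelial cell adhesion genes lay above E14. Of 46 measured genes of epithelial junctions and identity 9 (19.6%, against 4.19% of all genes) were at least 2-fold higher and 0 lower, with a median of 0.30. Gja1, the connexin 43 gene, had a signal of 2863 at E18 and 399 at E14 (log2 2.84). Perp, a desmosome-associated protein (12546 and 3464, log2 1.86), Dsg2 (1.84, another probe at -0.06), Epcam (1.59) and Cdh1, which encodes E-cadherin (1640 and 684, log2 1.26), were also higher. Cdh2, the N-cadherin gene, was at -0.15.

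Keratins were not higher as a group. Of 18 epithelial keratins 0 were higher and 3 lower, with a median of -0.08 at E18 (0.56 with median centring) against 0.80 at E16. Krt19 (271 at E18, 1131 at E14, log2 -2.06), Krt15 (3265 and 7485, log2 -1.20) and Krt8 (-1.05) were lower, and at E16 their ratios had been 0.33, 1.66 and 0.20. The basal keratins Krt5 (0.56) and Krt14 (-0.35) were within 2-fold. Genes of the cornified envelope, which are markers of skin and oral surface, had a median of 0.13 at E18 and 1.03 at E16. Of 20 measured 3 were higher, Spink5 (3.19), Serpinb12 and Lypd3 (1.54), while Ly6d was at 3.77 at E16 and 0.95 at E18 and Krtdap at 1.62 and -0.51. The summed signal of these 20 genes was 39768 at E18 and 33289 at E14, and the defining markers Ivl and Flg were well above background in neither channel. How far surface epithelium in the pools has a part in the epithelial values was not tested.

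Hair keratin and keratin-associated genes had the highest median, but only 8 of 28 genes on the array were measured. Of those 8, 5 were higher, namely Krtap17-1 (1376 at E18, 89.5 at E14, log2 3.94), Tchh, which encodes trichohyalin (2.30), Krt36 (at least 2.84-fold), Krt28 (1.46) and Padi3 (1.26). Since a dim gene that is high at E18 passes the filter through E18, the median of those measured (1.36) describes them alone, and with no filter on dim probes it was 0.09. The hair cortex keratins Krt31 and Krt85 were well above background in neither channel.

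Markers of other cell types gave the following values. Of 30 endothelial genes 0 were higher and 2 (6.67%, against 4.25% of all genes) lower, Cldn5 (-1.29) and Robo4 (-1.25). The endothelial median was -0.42 and the summed signal 10576 at E18 and 15803 at E14. With median centring 0 of the 30 were lower. Of 16 skeletal muscle genes none was 2-fold apart, but with an offset of 0 there were 5 lower and with the scanner's ratio 10. Their summed signal was 1465 and 1769, and Myod1 and Myog were well above background in neither channel. Of 27 macrophage and leukocyte genes only Tyrobp was higher (1.34) and only Stab1 lower (-1.02). That is 3.70% each way, against 4.19% and 4.25% of all genes. Of 15 osteoclast genes Ctsk, the cathepsin K gene (1.23), and Car2, also in the mineralized matrix list, were higher. The osteoclast median was 0.17, with 9 genes above 0 and 6 below, among them Mmp9 (-0.92), Itgb3 (-0.68) and Nfatc1 (-0.55). Of 18 Schwann cell and glia genes 4 (22.2%, against 4.25% of all genes) were lower and 1 higher, with a median of -0.23. Egr2, a myelination factor and immediate early gene, was lowest (-2.88), and the myelin gene Mbp was the higher one (1.16). Egr2 was also below E14 at E11, E12 and E16 (-4.09, -4.18 and -2.43). Sox10, the defining factor of the lineage, was at -0.27. With median centring 2 of these 18 were lower and 1 higher. The pericyte receptor gene Pdgfrb was at -2.92, while its list of 12 genes had a median of -0.02 (0.29 with median centring). The part of these cells in the differences above was not tested.

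Of 5 measured genes of the Y chromosome 2 were at least 2-fold lower at E18. Ddx3y, an RNA helicase gene, and Eif2s3y, a translation factor gene, were not well above background at E18, where Ddx3y was at least 3.04-fold and Eif2s3y at least 2.21-fold below E14. Both had been well above background at E11, E12 and E16 and in E14 on all 4 arrays, with log2 ratios of 0.44, -0.30 and -0.36 for Ddx3y and of 0.70, 0.11 and 0.53 for Eif2s3y. Kdm5d, a histone demethylase gene, was likewise not well above background at E18 only (log2 -0.23). Xist, the RNA that silences an X chromosome in females, had a log2 ratio of -0.13 at E18 at its brightest probe. Its other probes gave 0.66, 0.12 and 0.09 at E18. At E11 the brightest probe of Xist was at -1.84, and the others were at -1.35, -0.27 and -0.36 in the same order. The sexes of the pooled embryos are not given in the labels, and their part in the other differences was not tested.

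Compared with E16, measured on the same slide and also against E14, E18 differed in fewer genes than from E14. Over the same 15826 genes E16 and E14 were at least 2-fold apart in 637 (4.03%), and E18 and E16 in 230 (1.45%), of which 83 (0.524%) were higher and 147 (0.929%) lower at E18. E16 and E18 were both labelled with Cy5 and E14 with Cy3, with 0 dye swaps. A steady dye bias of a gene would enter the counts against E14 but cancel between E18 and E16, so the counts are not fully alike. The part of dye bias was not tested. These genes were those detected on the E18 array, so genes detected at E16 only are missing from the counts. Dspp, at 1.36 at E16 and 0.15 at E18, is one of those left out. At E18, 73 genes (0.461%) were at least 2-fold above every other stage. After Plac8, Pla2r1, Pyy, Krtap17-1 and Odam, these included Car2 and Lum, for which E18 exceeded the next stage by 1.95 and 1.58 log2 units, the melanocyte and osteoclast factor Mitf (1.35) and Dner, a Notch-binding transmembrane protein (1.57). Among the genes below every other stage, Fibin (-2.33), Erdr1 (-2.15), Sfrp2 (-1.95), Lgr5 (-1.68), Meis2 (-1.65) and Cyp26b1 (-1.57) had wide gaps to the next stage, beside Ptprz1 (-2.10), whose other probes reached -0.09 against E14.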

How the data were processed

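Pooled whole molar germs were profiled on 4 two-colour Agilent arrays, E11, E12, E16 and E18 in Cy5 and E14 in Cy3, per the labels. Per the file headers, the authors' scanner files came from Agilent Feature Extraction 10.5.1.1 and hold linear intensity values for each spot, with a LogRatio column on the log10 scale (Cy5 relative to Cy3). The deposited value table holds the same log10 ratios: 100% of its values matched LogRatio.

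Log2 ratios were derived here from these deposited intensities with R 4.3.3 and limma 3.58.1, by normexp background correction (offset 50) on mean signals and median backgrounds, then loess within the array with control spots at weight 0. The offset compresses the ratios of dim genes. Control spots and 92 spots with outlier flags were left out, no spot was saturated, and spots of a probe were averaged. Signals are those after loess and Aquantile scaling; the E14 SD is from the Cy3 channel alone. A bound divides the bright channel's signal by the dim channel's own or, if higher, by the dimmest signal that any detected probe had (61.6 in Cy5, 64.9 in Cy3), and is open to dye bias. The median mean signal was 51.5 in Cy5 over a median background of 31.0, and 43.6 in Cy3 over 16.0, and the 1 array per stage limits the precision.

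Of the 23418 member probes 15861 got their gene name from an accession in a RefSeq table (GRCm38.p6, not used for positions), 3307 from a symbol, 1538 from a synonym and 2712 from the array. The file headers give mm7 as the build of the probe positions. At least 2-fold apart was the call, with no test. Genes named were drawn from the 20 highest and 20 lowest and from the 8 largest bounds in either direction. Not every gene on the lower side is named. Further genes came from each list, as many as 4 members per end and its defining members, and from a set of tooth genes. The Y-linked genes, H2aw's probes, Ptprz1 and the genes apart from every other stage were chosen after their values were seen. Members and lists were chosen with earlier results of these data known. The steps were checked on simulated data. E11 and E12 shared 1 slide and E16 and E18 the other. Alternatives were median centring, no background correction, an offset of 0, the scanner's own ratio, other filters, the mean over probes and a mean E14.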

Additional observations from a re-analysis of the deposited data

How the results depend on the processing

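Against 1335 genes at least 2-fold apart (663 higher, 672 lower), median centring gave 2312 (2023 and 289), an offset of 0 gave 3033 (1514 and 1519) and the scanner's ratio 4066 (1925 and 2141). The share higher was 49.7%, 87.5% with median centring and 47.3% with the scanner's ratio. Median centring moved the median of all genes from -0.01 to 0.24; all 663 higher genes and 289 of the 672 lower ones kept their call. A set of 262 genes at least 2-fold apart was followed, namely the leading genes, chosen single genes and every list member so far apart. Not all of them are named in the text. Of the 262, 212 kept the call with median centring, 230 with the mean over probes and 259 with E14 averaged. All 262 kept it without background correction, with an offset of 0, with the scanner's ratio and with no filter. These settings could remove few calls. Without background correction (1794 genes apart), with an offset of 0 and with the scanner's ratio, the ratios of dim genes are wider. Leaving out the filter adds only dim probes, and the count was again 1335. With median centring 1 changed sign, Hbb-bt (-1.07, then 0.02). Of the genes named in the text, those no longer 2-fold lower with median centring were Boc, Ccnd2, Ccnd3, Cdkn1c, Cldn5, Col1a1, Col3a1, Dlk1, Dusp6, Fgf8, Gli2, Gli3, H19, Hbb-bt, Igf2, Klf2, Krt15, Krt8, Notch3, Nr4a1, Robo4, Stab1 and Vim. With the mean over probes Dsg2, Gli2, Hbb-bt, Klf2, Runx2, Tfap2b, Tnfrsf19, Trp63 and Wnt6 were no longer 2-fold apart. No paired analysis was possible because each group has 1 array and the labels give no shared replicate numbers. Dim genes are limited by signal over background.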

Other observations

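The groups below are read against 4.19% of all genes at least 2-fold higher and 4.25% lower. Of 23 S100 proteins and annexins, which bind calcium, 4 (17.4%) were at least 2-fold higher and 0 lower, with Anxa3 at 1.57 and Anxa4 at 1.2. Of 16 serpins, inhibitors of proteases, 4 (25%) were higher and 0 lower, with Serpinb6b at 1.98 beside Serpinb12. Of the 16, 5 were well above background in 1 channel only, as Serpinb12 was at E18. With both channels required 2 serpins were higher, and with no filter on dim probes their median was 0.1 in place of 0.35. Of 23 immediate early genes 0 were higher and 6 (26.1%) lower, with Egr1 at -1.79, Nr4a1 at -1.39 and Klf2 at -1.54, while Egr3 was at least 3.98-fold lower. With median centring 1 of the immediate early genes was higher and 3 were lower. Across all 23 the median log2 ratio was 0.06, with 13 genes above 0 and 10 below. The median over E14 was -1.03 at E11, -0.76 at E12 and 0.05 at E16. Egr3 was below E14 on those arrays too, at -2.51, -2.59 and -2.43 for E11, E12 and E16, so its low ratio was not particular to E18. Atf3 (0.63), Dusp1 (0.61), Jun (0.35) and Fos (0.14) were among those above 0, each by less than 2-fold. Handling of the tissue was not tested. Of 40 axon guidance genes 5 were lower, led by Slit3 (-2.16), and 3 higher, led by Robo1 (1.34).

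After their values were seen 4 gene families were also counted. Of 28 protocadherins 6 were at least 2-fold lower and 1 higher, from -3.0 (Pcdh10) to 1.06, with a median of 0.03. Of 43 potassium channel genes 3 were higher and 3 lower, of 11 ephrin receptors 3 were lower and 0 higher, and of 5 apolipoproteins 1 was higher. The share of genes at least 2-fold apart was 3.20% in the dimmest, 11% in the middle and 11.1% in the brightest of 3 equal classes of signal.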
